A study of Mus musculus with 3 samples.

Results

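7 genes of neurotrophic and innervation signalling, Clstn3, S100b, Ntf3, Bdnf, Gdnf, Slit3 and Ntrk3, were followed in nuclei of mouse interscapular brown adipose tissue (BAT) with its nerves intact or cut. They were chosen by name, with earlier results of these data known. All 7 are listed in each of the 3 gene tables, which hold 23041, 23364 and 23089 genes in the untreated, sham and denervated libraries. Nuclei came from the floating layer of digested BAT, in which brown adipocytes (BAs) and fragments of vessels collect, and their RNA was counted as unique molecular identifiers (UMIs), 1 for each captured molecule. All mice are labelled as wild-type C57Bl6 adults, 8 weeks old by the methods. The untreated library (non-treatment) is described there as a pool of 20 mice. The denervated library (D-BAT) was made from 20 mice at 3 days after 5 branches of the left intercostal nerves had been cut, with the right nerves left in place. The study adds that these mice received tamoxifen, which it does not state for the untreated mice, and the run name in the header of the denervated table holds the letters nKO, which neither the labels nor the paper explain. The sham library carries the label sham operation, and its number of mice and its time after surgery are not given in the sources used here. Each condition was measured in 1 library, without replicates or tests, so condition and library cannot be told apart, and all 95% intervals cover counting error only.

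Neurotrophins such as Ntf3 and Bdnf are secreted proteins that keep neurons alive and shape their axons, and Ntrk3 encodes TrkC, the main receptor of Ntf3. Gdnf is a survival factor that Schwann cells, the glia of peripheral nerves, can release, and Slit3 is a secreted guidance protein read by Robo receptors. Clstn3, which encodes a calsyntenin, and S100b, a small calcium-binding protein best known from glia, are linked in thermogenic fat, where a form of calsyntenin made by thermogenic adipocytes favours release of S100b and growth of sympathetic fibres.

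In the GENCODE vM21 annotation of GRCm38 all 7 genes are protein-coding. Clstn3 lies on chromosome 6 from 124430759 to 124464794 on the minus strand, and Ntf3 on the same chromosome and strand from 126101412 to 126166910. S100b spans chromosome 10 from 76253853 to 76261159, Bdnf chromosome 2 from 109674700 to 109727007, and Gdnf chromosome 15 from 7810846 to 7837575, all on the plus strand. Slit3 covers chromosome 11 from 35121224 to 35708507 on the plus strand, and Ntrk3 chromosome 7 from 78175959 to 78738012 on the minus strand. Counts were made per gene, so the 7 annotated transcripts of Clstn3 or the 11 of Bdnf cannot be told apart, and Clstn3 values are those of all its forms, not of the form linked to innervation. S100b shares its locus with Dip2a, which is read from the opposite strand without shared exons, and intronic RNA is common in nuclei. Bdnf shares exon sequence with the antisense gene Gm45346, which was not analysed here. Ntrk3 overlaps Gm9885 on the opposite strand without shared exons, and Gm9885 was at 10.1, 7.33 and 12.4 CPM in brown adipocyte-like nuclei of the untreated, sham and denervated libraries.

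After filtering, 10463 untreated, 11741 sham and 9605 denervated nuclei were left, with a median of 973, 741 and 684 UMIs per nucleus, and each pair of libraries shared 105 to 137 of their barcodes. Over all barcodes before filtering, mitochondrial UMIs were 6.71%, 12.9% and 2.95% of the untreated, sham and denervated totals. Nuclei were clustered without the 7 genes, and clusters were named from marker lists: 3319 to 4919 nuclei per library were brown adipocyte-like, 2121 to 5411 endothelial-like, 571 to 1401 pericyte-like, 134 to 914 white adipocyte-like, 31 to 59 fibroblast-like, 26 to 129 Schwann-like and 65 to 255 immune-like. In the sham library 476 further nuclei were adipocyte-like with brown and white not told apart. They are left out of all brown and white adipocyte-like values, and had 241 CPM of Clstn3, 186 CPM of Slit3 and 701 CPM of Ntrk3. Among their 10 leading genes, 2 pericyte-like clusters had more markers of another list than of their own. These were 387 sham nuclei with the fibroblast genes Col1a1 and Col1a2 and no pericyte marker, and 115 D-BAT nuclei with the smooth muscle genes Acta2 and Myh11 and 1 pericyte marker, Rgs5. Ratios for pericyte-like nuclei are therefore given also without these clusters, a choice made after seeing the data. Of endothelial-like clusters, 3 (184, 90 and 80 nuclei) had Stmn2, a gene of the neuron list, and no endothelial marker among their leading genes. The sham library stood apart. In brown adipocyte-like nuclei Adrb3, the adrenergic receptor of fat, was at 579, 1781 and 612 CPM (UMIs of the gene scaled to 1e+06 UMIs of the nucleus type) in the untreated, sham and denervated libraries. Ucp1, the uncoupling protein of BAs, was at 345, 410 and 313 CPM there, and Elovl3, a cold-induced elongase, at 11.2, 13.2 and 4.89 CPM. Dio2, the thyroid hormone deiodinase, was at 21.8, 22.2 and 37.9 CPM, and Ppargc1a, a regulator of mitochondrial genes, at 286, 187 and 293 CPM. Sympathetic neuron genes, whose cell bodies lie outside the tissue, summed to 96, 151 and 79 UMIs in all nuclei and do not check the nerve cut. By immunoblot, the study found tyrosine hydroxylase, an enzyme of sympathetic neurons, lower but not absent in denervated BAT.

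The 7 genes had different cellular sources. Ntrk3 and Clstn3 were BA genes, with 89.2% to 95.8% and 87.2% to 94.3% of their UMIs in brown adipocyte-like nuclei, which held 45.7% to 65.8% of all UMIs. Of Ntf3 UMIs, 52.6% to 76.4% lay in endothelial-like and 17.3% to 28.1% in pericyte-like nuclei. Of the few Bdnf UMIs, 80.0% to 96.2% lay in pericyte-like nuclei. By level, Slit3 was highest in fibroblast-like, vascular mural and white adipocyte-like nuclei. By share of its UMIs, brown adipocyte-like nuclei, with a lower level, held 44.6%, 12.3% and 43.6% in the untreated, sham and denervated libraries and pericyte-like nuclei 27.2%, 43.1% and 19.2%, so its sources differed between libraries. S100b was highest in Schwann-like nuclei of the untreated and sham libraries, and present at a low level in brown adipocyte-like nuclei. Gdnf was the exception: it had hardly any UMI outside the denervated library, where most of them lay in Schwann-like nuclei.

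**Figure D1:**
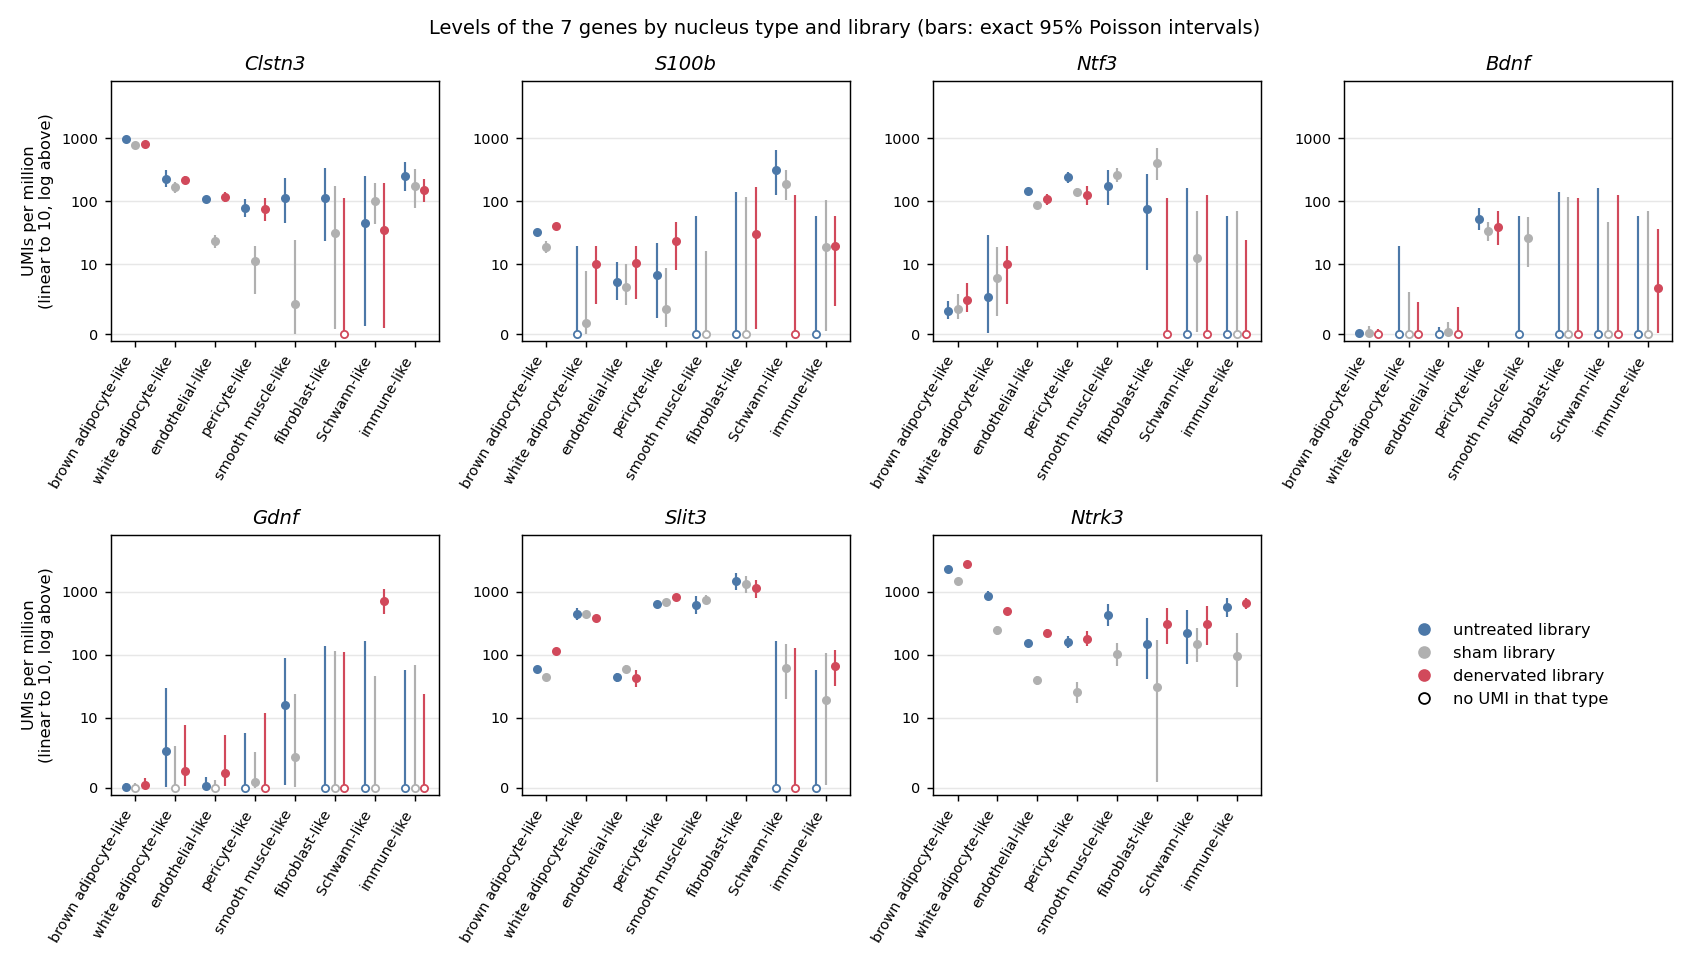
Level of each gene in CPM (vertical axis, linear to 10 and logarithmic above) by nucleus type, with 1 point per library and exact 95% Poisson intervals. Gdnf has 1 high point, 719 in Schwann-like nuclei of the denervated library, while Ntrk3 and Clstn3 are highest in brown adipocyte-like nuclei and Bdnf in pericyte-like nuclei of each library.

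Gdnf had 21 UMIs in the 45 Schwann-like nuclei of D-BAT, or 719 CPM (445 to 1099). It had no UMI in the 26 Schwann-like nuclei of the untreated library, where 3 UMIs would be 133 CPM, and none in the 129 of the sham library, where 3 UMIs would be 37.5 CPM. The denervated level thus lies above what a count of 0 allows in either of the others, and since fewer than 50 nuclei were at hand, no ratio was formed. The 21 UMIs came from 11 nuclei, or 24.4% of the 45 (12.9 to 39.5), with at most 4 in 1 nucleus, and 7 of the 11 also had a UMI of a Schwann marker. They were 77.8% of the 27 Gdnf UMIs in nuclei of that library, although Schwann-like nuclei held 0.381% of its UMIs. Outside them Gdnf was near absent in D-BAT, with 2 UMIs each in brown adipocyte-like, white adipocyte-like and endothelial-like nuclei. Brown adipocyte-like nuclei, which should lack Gdnf, had a UMI in 0.0407% of cases. Their median depth was 885 UMIs, and that of the Schwann-like nuclei 575. Thinned to 500 UMIs, 5 of 28 Schwann-like nuclei of D-BAT kept a Gdnf UMI, and 0 of 22 and 0 of 69 had one in the untreated and sham libraries. Over all nuclei, Gdnf had 4, 2 and 27 UMIs in the untreated, sham and denervated libraries, and over all barcodes 4, 7 and 28, 5 of the 7 in sham nuclei removed as doublets. The log2 ratio over all nuclei was 3.47 (1.95 to 5.45) for denervated over untreated and 4.24 (2.25 to 7.36) for denervated over sham.

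The Schwann-like nuclei of D-BAT also differed in their other genes. Ngfr, the low-affinity neurotrophin receptor, was named here after its values were seen. It had 41 UMIs in them, or 1404 CPM (1008 to 1905), against 5 UMIs or 222 CPM (72.2 to 519) in the untreated and 2 UMIs in the sham library. S100b, the glial gene among the 7, had 7 UMIs or 311 CPM (125 to 641) in untreated and 15 UMIs or 187 CPM (105 to 309) in sham Schwann-like nuclei, and no UMI in those of D-BAT, where 3 UMIs would be 103 CPM. The exact 95% upper bound in D-BAT, 126 CPM, lies below both values but reaches the lower ends of both intervals. With a minimum of 500 detected genes the sham value of S100b was 68.8 CPM, below the denervated upper bound. Endothelial-like nuclei had an S100b UMI in 0.407% to 0.518% of cases, against 26.9% and 10.1% of untreated and sham Schwann-like nuclei.

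As a sum, the markers that gave these clusters their name were lower in D-BAT as well, though not each of them was. The 8 markers summed to 12140, 10167 and 3013 CPM in untreated, sham and denervated Schwann-like nuclei, with 7, 8 and 6 of them detected. The 10 fibroblast markers summed to 3958, 1961 and 4794 CPM in the same nuclei, more than the Schwann markers in D-BAT. These UMIs came from the collagen genes Col1a1, Col1a2 and Col3a1 and at most 1 UMI of Fbn1 per library, while Pdgfra, Dcn, Lum, Dpp4, Pi16 and Cd248 were at 0 in each library. Their part in the differences of Schwann-like nuclei was not tested. Mbp, myelin basic protein, was at 845 CPM (509 to 1319), 687 CPM (518 to 894) and 274 CPM (118 to 540), and Ncmap, another myelin gene, had 1, 3 and 0 UMIs. Cdh19, a cadherin of the Schwann lineage, was at 2624, 3297 and 822 CPM, and Scn7a, a sodium channel of non-myelinating Schwann cells, at 3202, 3297 and 308 CPM. Sox10, the transcription factor that defines the lineage, was at 1067 (684 to 1588), 512 (367 to 695) and 856 CPM (554 to 1264), so that the intervals of D-BAT and the untreated library overlap. The glial receptor genes Gfra3 (712, 937 and 788 CPM), Gfra2 (667, 400 and 548 CPM) and Erbb3 (534, 400 and 342 CPM) also had overlapping intervals in all 3 libraries. Whether the Gdnf-bearing nuclei are the same kind of Schwann cell as those of the other libraries was not tested.

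**Figure D2:**
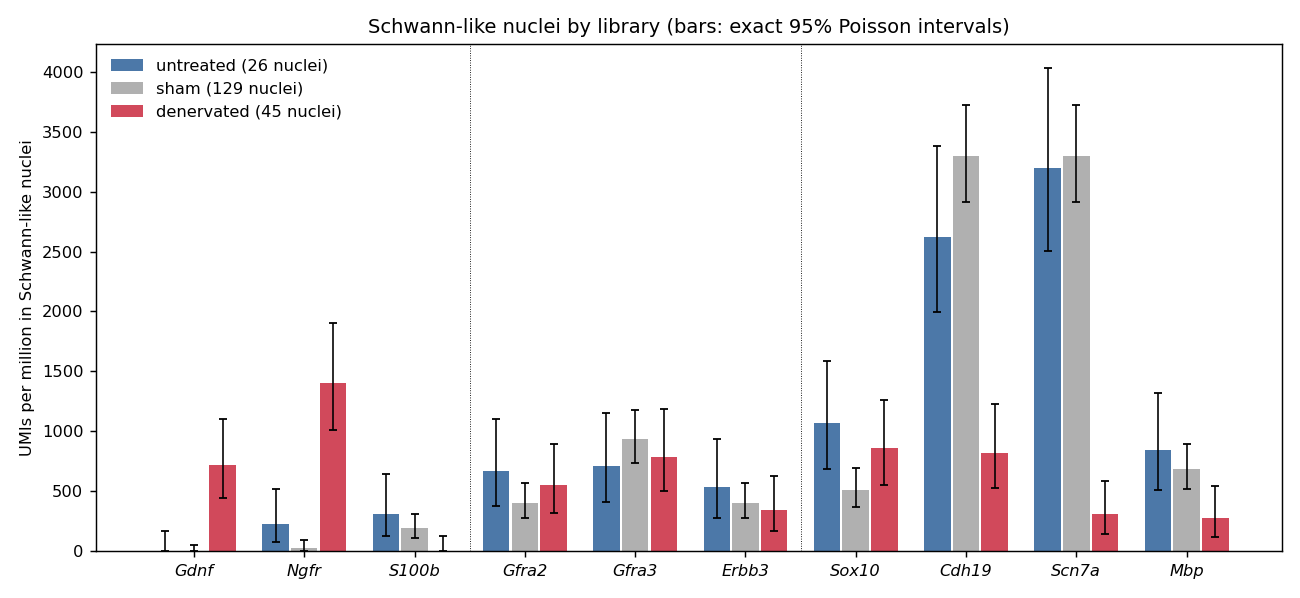
CPM in Schwann-like nuclei of the 3 libraries for Gdnf, Ngfr and S100b (left), glial receptor genes (middle) and Schwann markers (right), with exact 95% Poisson intervals. Gdnf and Ngfr are high in the denervated library at 719 and 1404, S100b is at 0 there, Cdh19 and Scn7a are low there at 822 and 308, and Sox10, Gfra3, Gfra2 and Erbb3 overlap with the untreated library.

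Ntf3, the ligand of TrkC, was mainly found in vessel cells. In endothelial-like nuclei it was at 143 CPM (130.4 to 156) in the untreated, 88.2 CPM (78.4 to 98.99) in the sham and 107 CPM (87.3 to 130) in the denervated library. D-BAT was between the innervated libraries by this level, with a log2 ratio to untreated BAT of -0.42 (-0.74 to -0.11) and not distinguishable from sham, at 0.28 (-0.06 to 0.61). In pericyte-like nuclei Ntf3 was at 237 CPM (195 to 285) in the untreated, 140 CPM (118 to 164) in the sham and 124 CPM (88.1 to 171) in the denervated library. The untreated library was the high one, and denervated over untreated was -0.93 (-1.5004 to -0.39), denervated over sham -0.17 (-0.72 to 0.35) and sham over untreated -0.76 (-1.12 to -0.40). Without the clusters led by markers of another type these were -0.68 (-1.28 to -0.13), -0.08 (-0.66 to 0.47) and -0.61 (-0.98 to -0.23). The markers of these nuclei differed too. The 11 pericyte markers in the tables, all detected, summed to 15012, 17134 and 9739 CPM, and the 9 smooth muscle markers, of which 7, 9 and 8 were detected, to 1147, 1274 and 1736 CPM. Without the 2 clusters the sums were 15012, 16924 and 8306 CPM and 1147, 1047 and 1172 CPM. Their part in the differences of pericyte-like nuclei was not tested. Smooth muscle-like nuclei had 176 and 262 CPM of Ntf3 in the untreated and sham libraries, and D-BAT had no cluster of this name. Fibroblast-like nuclei of the sham library had 13 Ntf3 UMIs or 403 CPM (215 to 690), the highest level of a named type in that library and above its pericyte-like nuclei, at 140 CPM (118 to 164). Those of the untreated library had 2 UMIs or 75.4 CPM (9.13 to 272), and those of D-BAT 0, where 3 UMIs would be 91.4 CPM. Brown adipocyte-like nuclei, which carry the receptor gene, had 3.26, 3.66 and 4.89 CPM of Ntf3, from 27, 18 and 24 UMIs. Whether this level is background was not tested. Thinned to 500 UMIs, a Ntf3 UMI was found in 5.81%, 3.76% and 4.27% of endothelial-like and in 11.4%, 6.17% and 5.56% of pericyte-like nuclei, against 0.0908% to 0.314% of brown adipocyte-like nuclei. Thinned to 800 UMIs, which only 149 endothelial-like nuclei of D-BAT reach, the order of D-BAT and sham turned, with 2.68% (0.74 to 6.73) in D-BAT and 5.98% (4.62 to 7.58) of 1054 sham nuclei, intervals that overlap.

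Within a library, Ntf3 ranged widely among the vessel clusters. In untreated BAT it ranged from 47.5 CPM (20.5 to 93.6) in an endothelial-like cluster led by Fbln5, Gja5 and Sema3g, genes of arterial ECs, to 232 CPM (180.1 to 295) in a cluster led by Hmcn1 and Samd5. In the sham library the endothelial-like clusters led by Fbln5 and by Apln had 0 and 1 Ntf3 UMIs, and the highest, led by Egr3 and Apold1, had 130 CPM. In D-BAT the highest endothelial-like cluster, led by Cyyr1 and Ablim3, had 192 CPM (143 to 252), and that led by Rflnb and Thbd had 1 UMI. Pericyte-like nuclei of untreated BAT fell into a cluster led by Kcnq5 and Abcc9 with 281 CPM (230 to 339) and one led by Rgs5 and Id4 with 63.2 CPM (23.2 to 138). The 3 sham clusters had 153 CPM (123 to 188), 161 CPM (117 to 216) and, in that with fibroblast genes, 84.0 CPM (51.3 to 129.7). In D-BAT a cluster led by genes that include Nostrin had 147 CPM (103 to 205), and that with smooth muscle genes had 3 UMIs or 44.1 CPM (9.09 to 129), so that their intervals overlap. The clusters were built in each library on its own and are not matched between libraries.

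Bdnf, the other neurotrophin, was rare, and most of its UMIs lay in pericyte-like nuclei. It had 25, 36 and 12 UMIs there in the untreated, sham and denervated libraries, which were 96.2%, 80.0% and 85.7% of all Bdnf UMIs in nuclei. The levels were 52.9 CPM (34.2 to 78.1), 33.1 CPM (23.2 to 45.8) and 39.3 CPM (20.3 to 68.6), with intervals that overlap. Denervated over untreated was -0.43 (-1.56 to 0.62) and denervated over sham 0.25 (-0.83 to 1.22), so a difference was not detectable at this depth. Without the clusters led by markers of another type these were -0.65 (-2.01 to 0.54) and 0.08 (-1.26 to 1.26). Endothelial-like and brown adipocyte-like nuclei had at most 1 Bdnf UMI per library. In the sham library 6 further UMIs lay in smooth muscle-like nuclei, or 26.2 CPM, near the 33.1 CPM of its pericyte-like nuclei. Smooth muscle-like nuclei of the untreated library had 0 UMIs. In D-BAT 8 of the 12 UMIs in pericyte-like nuclei lay outside the cluster with smooth muscle genes.

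Slit3, the guidance ligand, was highest in fibroblast-like nuclei, with 1470 CPM (1046 to 2010) in the untreated, 1303 CPM (939 to 1761) in the sham and 1128 CPM (794 to 1554) in the denervated library. Pericyte-like nuclei had 645 CPM (575 to 722), 699 CPM (650 to 750) and 822 CPM (723 to 930), and the intervals of fibroblast-like and pericyte-like nuclei do not overlap in the untreated and sham libraries. Smooth muscle-like nuclei had 623 and 750 CPM in the untreated and sham libraries. White adipocyte-like nuclei had 450, 443 and 387 CPM, with ratios between libraries that include 0. In pericyte-like nuclei the denervated library was the highest, by 0.35 (0.10 to 0.59) over untreated and 0.23 (0.02 to 0.44) over sham. Without the clusters led by markers of another type these were 0.55 (0.30 to 0.81) and 0.37 (0.14 to 0.59). The 2 clusters of D-BAT had 948 CPM (828 to 1080) in that led by genes that include Nostrin and 382 CPM (249.5 to 560) in that with smooth muscle genes.

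In brown adipocyte-like nuclei Slit3 was below its level in white adipocyte-like nuclei, and highest after denervation. It was at 60.3 CPM (55.1 to 65.8) in the untreated, 44.2 CPM (38.5 to 50.5) in the sham and 116 CPM (107 to 126) in the denervated library. Denervated over untreated was 0.94 (0.77 to 1.12), denervated over sham 1.39 (1.16 to 1.62) and sham over untreated -0.45 (-0.69 to -0.22). Of clusters with at least 50 nuclei, the 5 brown adipocyte-like ones of D-BAT had point values of 101 to 176 CPM. The 4 of untreated BAT had 53.8 to 94.8 CPM and the 4 of the sham library 33.4 to 60.8 CPM. The smallest of these clusters had 136 nuclei in D-BAT and 286 in untreated BAT. Their intervals were not compared, and clusters of 1 library are not replicates. Slit3 was more abundant in white adipocyte-like nuclei, and the 6 white adipocyte markers moved with it in brown adipocyte-like nuclei, summing to 324, 197 and 532 CPM. All 6 were detected in each library, and their part in the difference was not tested. With nuclei typed by their own markers, denervated over untreated was 0.99, but denervated over sham came to 0.69 and sham over untreated turned to 0.30. With all adipocyte-like nuclei as 1 type, an alternative chosen after seeing the data, the 3 ratios were 1.16, 0.68 and 0.48.

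Ntrk3, the receptor of Ntf3, was a gene of BAs with a level that differed between all 3 libraries. Its level in brown adipocyte-like nuclei was 2323 CPM (2290 to 2356) in the untreated, 1498 CPM (1464 to 1532) in the sham and 2773 CPM (2727 to 2820) in the denervated library. D-BAT was above both innervated libraries, by 0.26 (0.22 to 0.29) over untreated and 0.89 (0.85 to 0.93) over sham, while sham over untreated was -0.63 (-0.67 to -0.59). The gap between the innervated libraries was thus larger than that between denervated and untreated BAT. A Ntrk3 UMI was found in 93.4%, 77.7% and 86.0% of brown adipocyte-like nuclei, at medians of 1816.5, 1448 and 885 UMIs per nucleus. Thinned to 500 UMIs the shares were 66.6% (65.2 to 68.0), 50.2% (48.4 to 51.9) and 71.9% (70.5 to 73.2), in the order of the levels. Among the brown adipocyte-like clusters Ntrk3 ranged from 2199 to 2631 CPM in untreated BAT, from 1218 to 1686 CPM in the sham library and from 2522 to 3190 CPM in D-BAT, and the sham range overlaps neither of the others. With all adipocyte-like nuclei as 1 type, denervated over untreated was 0.099.

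White adipocyte-like nuclei carried less Ntrk3, and another order of the libraries. They had 867 CPM (740 to 1011) in the untreated, 247 CPM (210 to 290) in the sham and 486 CPM (439 to 537) in the denervated library, so that D-BAT lay below untreated BAT by -0.83 (-1.10 to -0.56) and above sham by 0.98 (0.70 to 1.26). These nuclei are not of 1 kind across libraries. In D-BAT a cluster led by the chemokine genes Cxcl1 and Ccl7 with Ptx3 had 326 CPM (278 to 379) and one led by Vcl, Alkal2 and Egfr had 771 CPM (673 to 879). The main untreated cluster, led by Slc7a10 and Nnat, had 819 CPM (677 to 983), and the main sham cluster, led by genes that include Cxcl10 and Mt2, had 269 CPM (227 to 318).

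**Figure D3:**
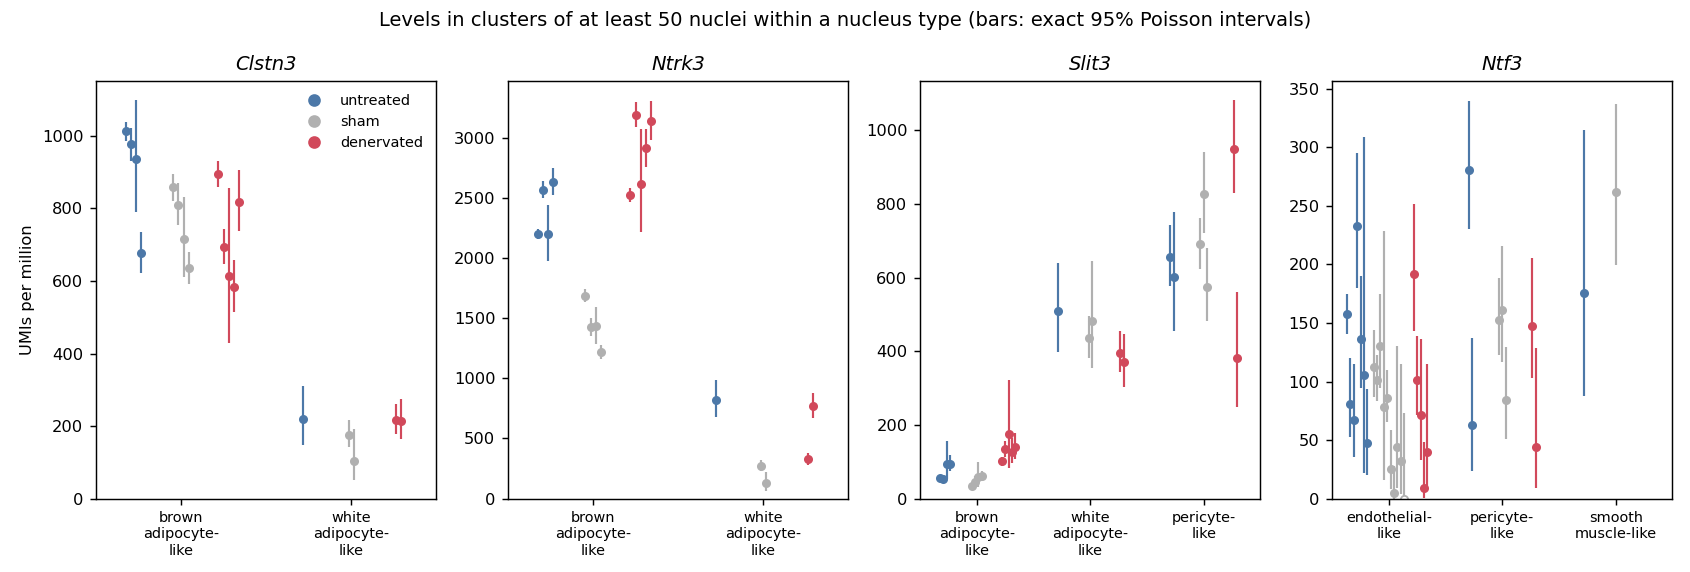
CPM of Clstn3, Ntrk3, Slit3 and Ntf3 in single clusters of at least 50 nuclei, grouped by nucleus type and coloured by library, with exact 95% Poisson intervals. Among brown adipocyte-like clusters, the points of the sham library, at 1218 to 1686, are the lowest for Ntrk3, and those of the denervated library, at 101 to 176, the highest for Slit3. Ntf3 spreads widely among endothelial-like clusters of the same library.

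Clstn3, the calsyntenin gene, was at 970 CPM (949 to 991) in untreated, 783 CPM (758 to 808) in sham and 808 CPM (783 to 833) in denervated brown adipocyte-like nuclei. The untreated library was the high one. Denervated over untreated was -0.26 (-0.32 to -0.21) and sham over untreated -0.31 (-0.36 to -0.25), while denervated over sham, at 0.05 (-0.02 to 0.11), included 0. The interval of denervated over sham left out 0 under other settings, at 0.14 (0.08 to 0.20) with own markers and 0.094 (0.031 to 0.157) with all adipocyte-like nuclei as 1 type. Without mitochondrial UMIs in the total, by contrast, the same ratio fell just below 0. The distance of D-BAT from untreated BAT was no larger than that of the sham library in brown adipocyte-like nuclei. White adipocyte-like nuclei had 227, 165 and 216 CPM of Clstn3, and denervated over untreated was -0.08 (-0.57 to 0.44) there, which includes 0, and denervated over sham 0.39 (0.03 to 0.76), which leaves it out. Thinned to 500 UMIs, a Clstn3 UMI was found in 34.9%, 29.8% and 29.4% of brown adipocyte-like nuclei and in 6.92%, 7.20% and 9.88% of white adipocyte-like nuclei. Among brown adipocyte-like clusters Clstn3 was lowest in one led by the stress genes Hspa1a, Dnajb1 and Atf3 in untreated BAT, at 677 CPM (621 to 736), against 935 to 1012 CPM in the others. In the sham library the lowest was that led by Pdk4, Dnajb1 and Atf3, at 635 CPM (593 to 680), and in D-BAT that led by Cyr61 and Hspa1a, at 583 CPM (515 to 658). A second D-BAT cluster led by Hspa1a had 819 CPM (738 to 906), so the low level did not go with every such cluster.

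S100b rested on 265, 93 and 195 UMIs in brown adipocyte-like nuclei of the untreated, sham and denervated libraries. The levels were 31.9 CPM (28.2 to 36.0), 18.9 CPM (15.3 to 23.2) and 39.7 CPM (34.3 to 45.7). Denervated over untreated was 0.31 (0.04 to 0.58), denervated over sham 1.07 (0.70 to 1.44) and sham over untreated -0.75 (-1.11 to -0.41), so the sham library was the low one. Without mitochondrial UMIs in the total, denervated over sham came to 0.9996, just under a log2 ratio of 1. Thinned to 500 UMIs, 1.39%, 1.22% and 1.67% of brown adipocyte-like nuclei had a S100b UMI, shares with overlapping intervals, against 0.454%, 0.394% and 0.684% of endothelial-like nuclei. White adipocyte-like nuclei had 0, 1 and 8 S100b UMIs. In D-BAT the level was 50.8 CPM (42.8 to 59.9) in a cluster led by genes that include Cebpa and Ppp1r3c and 10.96 CPM (3.56 to 25.6) in that led by Cyr61 and Hspa1a. Dip2a, which overlaps S100b on the opposite strand, was at 62.6, 51.7 and 70.8 CPM in brown adipocyte-like nuclei, with the sham library lowest too, and its part in the S100b counts was not tested. S100b was higher in Schwann-like nuclei of the untreated and sham libraries. The part of Schwann RNA in the counts of brown adipocyte-like nuclei was not tested either.

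The ratios were read against those of all genes. The members and the wider list were chosen with earlier results of these data known. Their counts beside the shares of all genes are thus a description only. A gene was counted if it reached 20 CPM in a library of the comparison and if its ratio was at least 1 in size with an interval that leaves out 0. In brown adipocyte-like nuclei 0 of the 4 genes with enough counts (Clstn3, S100b, Slit3 and Ntrk3) met this for denervated over untreated, where 1.67% of all genes were higher and 0.59% lower. For denervated over sham 2 of 4 were higher, S100b and Slit3, beside 8.43% of all genes that were higher and 8.33% that were lower. S100b was at 18.9 CPM in the sham library and entered this count only through D-BAT, the library in which it was high. Neither call held under every setting: Slit3 came to 0.69 with own markers and 0.68 with all adipocyte-like nuclei as 1 type, and S100b to 0.9996 without mitochondrial UMIs. For sham over untreated 0 of 4 met it, beside 7.95% higher and 7.1% lower. In pericyte-like nuclei 0 of 6 met it for denervated over untreated, beside 5.45% higher and 4.71% lower. Both denervated comparisons share the denervated library. With a minimum of 50 CPM, which leaves S100b out, 0 of 3 met it for denervated over untreated (1.08% of all genes higher, 0.42% lower), Slit3 alone for denervated over sham (7.5% and 7.39%) and 0 of 3 for sham over untreated (7.36% and 6.86%). Slit3 was at 44.2 CPM in the sham library, so at this minimum its call over sham entered only through D-BAT.

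**Figure D4:**
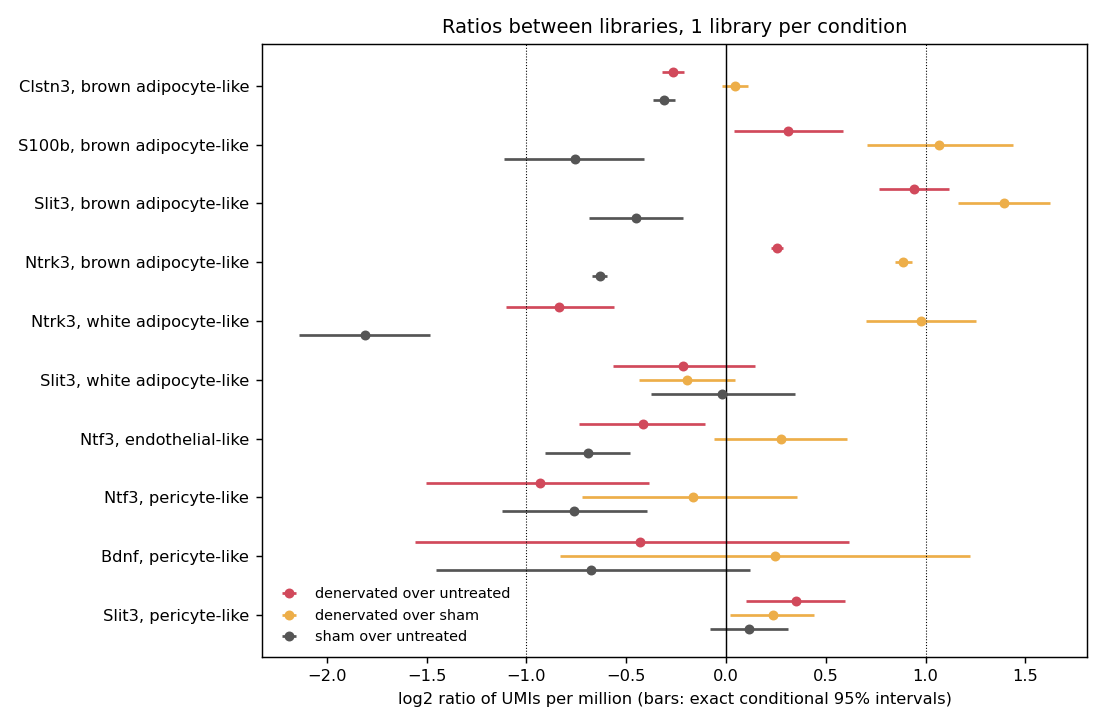
Log2 ratios of CPM between libraries (horizontal axis) for 10 pairs of gene and nucleus type, named on the vertical axis, with exact conditional 95% intervals, dotted lines at -1 and 1. For these pairs, ratios of denervated over untreated stay between -1 and 1, and those of sham over untreated are of like or larger size for Ntrk3, Clstn3 and Ntf3 in endothelial-like nuclei.

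In vessel nuclei Clstn3 and Ntrk3 were low, and lowest in the sham library. Endothelial-like nuclei had 108, 23.1 and 116 CPM of Clstn3 and 152, 39.2 and 223 CPM of Ntrk3 in the untreated, sham and denervated libraries. Of the 4 genes counted there, 0 were past the fold for denervated over untreated, beside 4.62% of all genes higher and 1.05% lower. For denervated over sham these 2 were higher, Clstn3 by 2.33 (1.897 to 2.77) and Ntrk3 by 2.51 (2.19 to 2.83), beside 9.84% higher and 5.01% lower. For sham over untreated both were lower, by -2.22 and -1.96, beside 2.72% higher and 2.92% lower. Pericyte-like nuclei showed the same: Clstn3, Ntrk3 and S100b were higher for denervated over sham (3 of 6, beside 8.15% higher and 8.34% lower), and Clstn3 and Ntrk3 lower for sham over untreated (2 of 5, beside 4.61% higher and 3.6% lower). S100b rested on 7 and 4 UMIs there. Clstn3 and S100b were under 20 CPM in sham pericyte-like nuclei, so their calls over sham entered only through D-BAT. The call of Clstn3 for sham over untreated likewise entered only through the untreated library. Both limits also held without the clusters led by markers of another type. Without the pericyte-like clusters led by markers of another type the calls were on the same members, 0 of 6 for denervated over untreated (5.73% of all genes higher, 6.96% lower), 3 of 6 for denervated over sham (8.4% and 8.87%) and 2 of 5 for sham over untreated (4.41% and 3.92%). With a minimum of 50 CPM the same calls of Clstn3 and Ntrk3 were made in both types, and S100b was not counted. At that minimum both genes entered only through the library compared with sham, as their sham values were under 50 CPM in both types. Of all genes in endothelial-like nuclei 2.89% were then higher and 0.503% lower for denervated over untreated, 9.66% and 3.68% for denervated over sham, and 2.01% and 2.85% for sham over untreated. The shares in pericyte-like nuclei were 5.4% and 5.01%, 8.08% and 8.49%, and 3.55% and 3.17%.

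Adipocyte RNA was also found in the other nucleus types. The 7 adipocyte markers and the 9 of 10 brown adipocyte markers that are in the tables, summed, reached 13.4%, 9.44% and 15.4% of their brown adipocyte-like level in endothelial-like nuclei of the untreated, sham and denervated libraries. Clstn3 reached 11.1%, 2.95% and 14.4% there, and Ntrk3 6.56%, 2.62% and 8.05%, with the sham library lowest each time. In pericyte-like nuclei the markers reached 13.4%, 9.01% and 12.6%, Clstn3 8.07%, 1.41% and 9.32%, and Ntrk3 6.92%, 1.72% and 6.49%. Both genes thus lay below the adipocyte markers in vessel nuclei, at a level that allows background, and in the sham library they lay further below than in the others. The part of adipocyte RNA in these counts was not tested. In immune-like nuclei the markers reached 27.2%, 7.28% and 24.8%, Ntrk3 24.6%, 6.35% and 23.7%, and Clstn3, from 9 to 23 UMIs, 26.1%, 21.9% and 18.7%, which in the sham library is above the markers. With at most 10% mitochondrial UMIs per nucleus, the ratio of Ntrk3 for denervated over untreated in endothelial-like nuclei turned from 0.55 to -0.26. In D-BAT 576 nuclei stayed unnamed, with the adipocyte markers at 75.6%, Clstn3 at 66.2% and Ntrk3 at 67.3% of the brown adipocyte-like level.

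**Figure D5:**
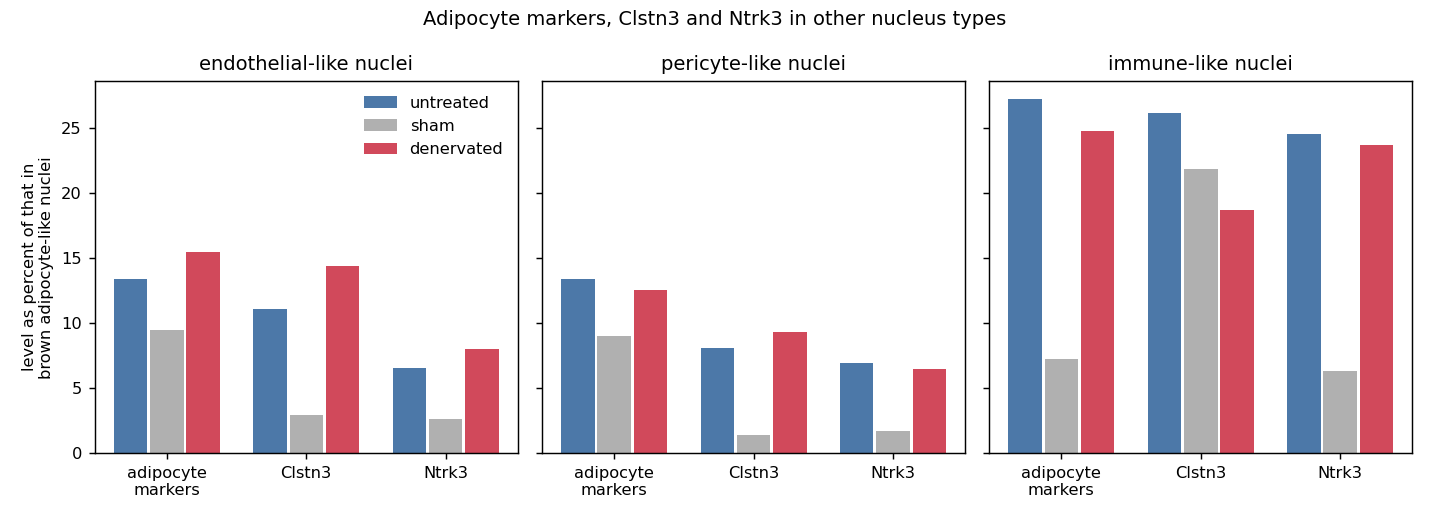
Level of the adipocyte markers (summed), Clstn3 and Ntrk3 in endothelial-like, pericyte-like and immune-like nuclei, as percent of their level in brown adipocyte-like nuclei of the same library. In endothelial-like and pericyte-like nuclei the sham bars are the lowest for all, and Clstn3 and Ntrk3 stay at or below the markers in these 2 types. The Clstn3 bars of immune-like nuclei rest on 16, 9 and 23 UMIs.

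A wider list of 44 genes of the same pathways was read in the same way. Each table holds 41 of them, though not the same 41. In brown adipocyte-like nuclei 15 of them had enough counts for denervated over untreated, 2 were higher and 0 lower, beside 1.67% and 0.59% of all genes, with a median log2 ratio of 0.25 against -0.02 over all genes counted. These were the Slit receptors Robo1, at 13.1, 13.03 and 34.2 CPM in the untreated, sham and denervated libraries, and Robo2, at 13.6, 9.57 and 29.5 CPM. Both reached 20 CPM only in D-BAT, so they entered the count only through the library in which they were high. The calls of Robo1 and Robo2 are thus a description only. Both were also higher for denervated over sham, by 1.39 (0.97 to 1.83) and 1.63 (1.14 to 2.13), after 1.38 (1.02 to 1.74) and 1.12 (0.75 to 1.48) over untreated. In white adipocyte-like nuclei Robo1 was at 42.3, 11.3 and 31.2 CPM and Robo2 at 10.6, 16.2 and 18.7 CPM, from 2 to 25 UMIs each. In brown adipocyte-like nuclei of D-BAT the ligand Slit3 and both receptors were each at their highest of the 3 libraries. The sum of the white adipocyte markers, given above with Slit3, was also highest there. Its part in the Robo1 and Robo2 values was not tested. For denervated over sham 6 of 15 were higher and 1 lower, beside 8.43% and 8.33% of all genes, with a median of 0.69 against -0.00016 over all genes, and for sham over untreated 1 of 12 was higher and 3 lower, beside 7.95% and 7.1%. At a minimum of 50 CPM neither Robo1 nor Robo2 is counted. Not past the fold were Nrg4, a secreted neuregulin of BAs, at 696, 745 and 780 CPM, and Ntrk2, the receptor of Bdnf, at 277, 333 and 279 CPM.

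In endothelial-like nuclei 15 genes of the wider list were counted for denervated over untreated, of which 3 were higher and 0 lower, beside 4.62% and 1.05% of all genes, with a median of 0.35 against 0.07 over all genes. For denervated over sham 6 of 17 were higher and 1 lower, beside 9.84% and 5.01%, and for sham over untreated 2 of 15 were higher and 2 lower, beside 2.72% and 2.92%. Those higher against both libraries were the neuregulin receptor Erbb4, at 33.9, 18.9 and 71.6 CPM, the proneurotrophin receptor Sorcs2, at 31.9, 8.82 and 65.4 CPM, and the netrin receptor Dcc, at 10.4, 10.04 and 20.8 CPM. Dcc reached 20 CPM only in D-BAT and entered the count only through that library. Against sham, Erbb4 and Sorcs2 also entered only through D-BAT, as their sham values were under 20 CPM. The 9 brown adipocyte markers in the same nuclei summed to 496, 320 and 839 CPM, all detected, and the 10 fibroblast markers, of which 9, 9 and 8 were detected, to 45.2, 67.8 and 116 CPM. Their part in these differences was not tested. Sorcs2 is also a gene of BAs here, at 412, 69.4 and 490 CPM in brown adipocyte-like nuclei, with the sham library low in both types. Without the 3 endothelial-like clusters that have Stmn2 among their leading genes, its ratio over untreated in endothelial-like nuclei was 0.99, just under the fold. In pericyte-like nuclei 20 were counted, 2 higher and 2 lower, beside 5.45% and 4.71% of all genes, with a median of 0.12 against -0.02. For denervated over sham 5 of 20 were higher and 3 lower, beside 8.15% and 8.34%, and for sham over untreated 1 of 18 was higher and 4 lower, beside 4.61% and 3.6%. Without the clusters led by markers of another type 21 were counted, 3 higher and 1 lower, beside 5.73% and 6.96%, for denervated over untreated. Higher over untreated in both counts were Sorcs2, at 40.2, 11.03 and 81.9 CPM, and the neuregulin Nrg1, named after its values were seen, at 23.3, 37.7 and 75.3 CPM. Sorcs2 was past the fold against both libraries, by 1.03 (0.11 to 1.97) and 2.89 (1.84 to 4.02), and Nrg1 against untreated by 1.69 (0.60 to 2.88), with 0.998 over sham, which without those clusters was 1.03 (0.16 to 1.86). Erbb4, at 38.1, 17.5 and 72.0 CPM, was past the fold over sham in both counts, by 2.04 and 2.46, and over untreated only without those clusters, by 1.15 (0.15 to 2.15). Sorcs2 and Erbb4 were under 20 CPM in sham pericyte-like nuclei, so their calls over sham entered only through D-BAT. The GDNF-family receptor Gfra2 was lower in D-BAT, with 15, 62 and 2 UMIs or 31.7, 57.0 and 6.55 CPM, although its interval over untreated without those clusters included 0 (-5.08 to 0.19). Gfra2 was under 20 CPM in D-BAT and entered these counts only through the other library of each comparison, in which it was high. Also lower was Ngfr, at 165, 201 and 62.2 CPM, by -1.41 (-2.21 to -0.67) over untreated and -1.69 (-2.45 to -1.02) over sham, and by -2.29 and -2.59 without those clusters. Ngfr thus had opposite orders in the 2 types, low in pericyte-like and high in Schwann-like nuclei of D-BAT. Ret, the signalling receptor of Gdnf, had no UMI in Schwann-like nuclei of any library, and its co-receptor Gfra1 had 5, 5 and 1 UMIs there.

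The genes with the most alike pattern over 20 combinations of nucleus type and library, among 9582 genes, were found by Pearson's r of log2 (CPM + 5), as a description. These points share libraries and depths and are not independent. For Ntrk3 they included Ppp1r3b (0.94) and Klhdc7a (0.93), and for Clstn3 Tmem268 (0.91), Cpped1 (0.90) and Rgs7 (0.89). For Ntf3 they were Tril (0.94), Vangl1 (0.94) and Snai2 (0.93), for Bdnf Avpr1a (0.95), Vdr (0.93) and Tmem273 (0.93), and for Slit3 Dmpk (0.93), Prrx1 (0.91) and Tbx15 (0.90). For S100b the closest, Dlgap1 (0.80), Pcdh9 (0.79) and Igsf21 (0.78), were less alike. Gdnf had too few UMIs to be ranked.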

How the data were processed

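Tables of integer UMI counts, barcodes by genes, were deposited by the authors. For the untreated and denervated libraries, file headers give the BD WTA Rhapsody Analysis Pipeline 1.9 with GRCm38 and GENCODE. The sham file lacks such lines, so its build is not known from it. The submitters' processing notes name Seurat 4.0.6 and, for all libraries, the human build GRCh38, against those headers. DIEM and decontX, which the methods of the study apply, were not repeated, and the values thus include debris and ambient RNA.

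Filters of 200 or more genes and 50% or less mitochondrial UMIs were applied to 13707 untreated, 15368 sham and 15822 denervated barcodes with 14971579, 14725864 and 9420030 UMIs. Doublets, defined by 3 or more UMIs from both of 2 exclusive marker lists with the lower total reaching 25% of the higher, were removed (11.3%, 16.3% and 8.19%). Each library was clustered by the Louvain method at resolution 0.5 (2000 variable genes, 30 components, 20 neighbours, without the members and the wider list), and again within clusters of at least 100 nuclei. A cluster took the name of the best-scoring of 13 marker lists if 3 markers were raised 2-fold and the score was 1.5 (log2) above the lists of unrelated cells, and otherwise stayed unnamed. Where an adipocyte list, including the one shared by brown and white, scored best, the cluster was called brown or white if those scores differed by 1. Of the 539 sham white adipocyte-like nuclei, 475 were named in this way from the shared list. The clusters were known when this rule was set. The members and lists were chosen with earlier results of these data known. Of the lists, those for lymphatic endothelial, mesothelial and skeletal muscle cells and sympathetic neurons named no cluster.

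UMIs were summed per nucleus type as CPM with exact Poisson intervals. Log2 ratios, for types with at least 50 nuclei in both libraries, have exact conditional binomial intervals, and shares have Clopper-Pearson intervals, as found and thinned to 500 UMIs. All cover counting error only, at 95%. Named were the 7 members, genes of the wider list past the fold in the same direction in D-BAT against both other libraries, the 3 genes most alike each member with at least 50 UMIs, thermogenic check genes and leading genes of clusters. Named outside this rule, after their values were seen, were marker genes, Nrg1, Nrg4, Ntrk2, Gfra1, Gfra3, Erbb3 and Ret, and, in Schwann-like nuclei, Ngfr and Gfra2. A few genes that this rule would name are not reported here. Alternatives were 500 detected genes, 10% mitochondrial UMIs, no removal of doublets, resolution 1, types from own markers, CPM without mitochondrial UMIs, median-of-ratios scaling, thinning to 800 UMIs, a minimum of 50 CPM, and, added after seeing the data, all adipocyte-like nuclei together and no clusters whose 10 leading genes hold more markers of another list than of their own. The summed comparison was tested on simulated data. Software was python-igraph 0.11.9, matplotlib 3.10.9, scikit-learn 1.9.0, pandas 2.3.3, numpy 2.4.6 and scipy 1.17.1 under Python 3.11.15.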

Additional observations from a re-analysis of the deposited data

How the results depend on the processing

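No paired analysis was possible because each condition has 1 library, and no library could be left out for the same reason. Depth limits Gdnf, Bdnf and S100b, and the small number of Schwann-like nuclei limits their values. Gdnf in Schwann-like nuclei of D-BAT was at 621 to 846 CPM under the alternatives, with no UMI in those of the other libraries. With 500 genes this rested on 7 UMIs in 12 nuclei, or 621 CPM (249.6 to 1279), and with own markers on 4 UMIs in 7 nuclei, or 846 CPM (231 to 2166), so most of the 21 UMIs lay in nuclei that these settings leave out. At resolution 1 the untreated library had no Schwann-like cluster. Median-of-ratios scaling changed no direction. It shifted the median of all genes by over 0.1 (log2) for denervated over sham in endothelial-like nuclei (0.10) and in white adipocyte-like nuclei (0.10), for sham over untreated in white adipocyte-like nuclei (-0.15) and for denervated over sham in immune-like nuclei (-0.10).

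In brown adipocyte-like nuclei, the log2 ratio of Clstn3 for denervated over untreated moved to -0.20 with at least 500 detected genes and to -0.40 with all adipocyte-like nuclei as 1 type. For denervated over sham Clstn3 moved to 0.14 with own markers and to -0.023 without mitochondrial UMIs, and for sham over untreated to -0.45 with own markers and -0.49 with all adipocyte-like nuclei. Ntrk3 moved to 0.22 (500 genes), 0.18 (own markers) and 0.099 (all adipocyte-like nuclei) for denervated over untreated, to 0.83, 0.94 and 0.82 (500 genes, own markers, no mitochondrial UMIs) for denervated over sham, and to -0.76, -0.58 and -0.81 (own markers, no mitochondrial UMIs, all adipocyte-like nuclei) for sham over untreated. Slit3 moved to 1.16 for denervated over untreated with all adipocyte-like nuclei and to 0.69 and 0.68 for denervated over sham with own markers and all adipocyte-like nuclei, and for sham over untreated it reversed to 0.30 and 0.48 under the same settings. In endothelial-like nuclei with at most 10% mitochondrial UMIs, Ntf3 for sham over untreated moved to -0.45, and Ntrk3 for denervated over untreated reversed to -0.26. Slit3 in pericyte-like nuclei, sham over untreated, moved to 0.32 without removal of doublets, and S100b in sham Schwann-like nuclei to 68.8 CPM with 500 genes. The cause was not tested in these cases.

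Thinned to 800 UMIs, which leaves fewer and deeper nuclei, shares in untreated, sham and denervated brown adipocyte-like nuclei were 49.6%, 43.8% and 44.0% for Clstn3, 81.1%, 65.2% and 84.4% for Ntrk3, 4.14%, 2.37% and 7.17% for Slit3, and 2.34% (untreated) and 3.24% (denervated) for S100b. For Ntf3 they were 9.58%, 5.98% and 2.68% in 1691, 1054 and 149 endothelial-like and 16.2%, 9.41% and 0% (0 to 10.9) in 253, 595 and 32 pericyte-like nuclei, and for Slit3 33.8% in sham pericyte-like nuclei. At a minimum of 50 CPM, which counts fewer genes, 1.08% of all genes in brown adipocyte-like and 2.89% in endothelial-like nuclei were higher, and 0.503% in endothelial-like nuclei lower, for denervated over untreated. Of the wider list, 7, 8 and 7 genes were then counted in brown adipocyte-like nuclei for denervated over untreated, denervated over sham and sham over untreated (1.08% and 0.42%, 7.5% and 7.39%, 7.36% and 6.86% of all genes higher and lower). Brown adipocyte-like nuclei had 0 genes higher for denervated over untreated, 1 higher and 0 lower for denervated over sham, and 0 higher and 1 lower for sham over untreated. Endothelial-like nuclei had 2 higher and 0 lower of 9 (2.89% and 0.503% of all genes), 5 higher and 0 lower of 9 (9.66% and 3.68%), and 0 higher and 1 lower of 5 (2.01% and 2.85%) in the same order. Pericyte-like nuclei had 2 higher and 1 lower of 16 (5.4% and 5.01%), 3 higher and 3 lower of 16 (8.08% and 8.49%), and 1 higher and 1 lower of 13 (3.55% and 3.17%). Without the pericyte-like clusters led by markers of another type, chosen after seeing the data, the wider list at 20 CPM had 3 higher and 1 lower of 21 for denervated over untreated (5.73% and 6.96% of all genes), 8 higher and 3 lower of 22 for denervated over sham (8.4% and 8.87%), and 1 higher and 4 lower of 19 for sham over untreated (4.41% and 3.92%). No member ratio in pericyte-like or endothelial-like nuclei left its interval under this setting.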
